A study of Mus musculus with 14 samples.

Results

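H3K4me3 in the prefrontal cortex was compared between all defeated mice, taken as 1 group of 10 libraries, and control mice, 3 libraries. The 10 defeat libraries were chosen by their labels alone: 5 were made after 10 days of chronic social defeat stress (CSDS10 in the sample titles, SDS10 here) and 5 after 30 days (CSDS30, here SDS30). They are 10 of the 14 libraries of the series, which also holds 1 input library that was not analysed here. Every mouse was an adult male C57BL/6J aged 10 to 12 weeks and the labels name no mutation, transgene or drug in any group. In the defeat groups each mouse met an unfamiliar, aggressive CD1 male for a short time each day and lived next to such a mouse behind a perforated divider between encounters. Control mice lived in divided cages and met no aggressor. Defeated mice also went through behavioural tests shortly before their last session, and their cortex was dissected 24 hours after it. Whether a library came from 1 mouse or from several is not in the labels, and all p-values therefore rest on the spread among libraries, which may in part be technical.

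H3K4me3 is trimethylation of lysine 4 of histone H3. It is written by the Setd1 and Kmt2 complexes, removed by demethylases of the Kdm5 family, and read by proteins with PHD fingers such as the Ing family. The mark sits on the nucleosomes that flank the start sites of active and poised genes, above all at promoters rich in CpG dinucleotides, and in neurons it has been studied at activity-regulated genes such as Fos and Bdnf. Whole tissue was used, so a value is an average over all cells of the dissected cortex, and fewer cells of a type cannot be told apart from less of the mark per cell.

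Signal was given at 153207 peak summits, which fall into 48695 called regions. Of these regions, 21251 hold a single summit, and the median region holds 2 and the largest 39. A region's level is the sum over its summits of normalised reads, and differences are on the log2(value + 1) scale, defeat minus control. Between 4512817 and 10887911 reads fell on summits per library. For 8 measures of the libraries, an exact permutation test over the 286 splits (two-sided, smallest possible p 0.0035) gave adjusted p from 0.769 to 0.955. The strongest 5% of regions held 24.7% ± 0.308 (SD, n = 3) of the signal in control and 24.4% ± 0.714 (SD, n = 10) after defeat. All 22 excitatory neuron markers listed for cortex had a region, as did 18 of 20 markers of the neighbouring striatum and 9 of 23 of microglia and macrophages. The counts were 21 of 25 for inhibitory neurons, 15 of 20 for astrocytes and 22 of 27 for oligodendrocytes and myelin. They were 20 of 26 for endothelial and mural cells and 7 of 16 for ependyma and choroid plexus. A called region at a marker cannot tell cortex from striatum, so these counts do not check the tissue.

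No region and no summit differed between the 10 defeat and 3 control libraries by the test. Of 48174 regions tested, 0 (0%) passed an adjusted p of 0.05 in limma, and 1179 (2.45%) had an unadjusted p under 0.05, 854 higher (1.77%) and 325 lower (0.675%). The 2.45% lies below the share of 0.05 that this threshold gives when nothing differs. edgeR and DESeq2 on the recovered reads also called 0 regions, with 707 higher and 450 lower at that level in edgeR, and 896 and 407 in DESeq2. Of 152270 summits, 0 (0%) passed in limma, and 4448 (2.92%) had an unadjusted p under 0.05, 2908 higher (1.91%) and 1540 lower (1.01%). These counts turned on single libraries: with control replicate 1 left out, 1645 regions were higher and 556 lower, and 4 summits passed. With control replicate 3 left out, 652 were higher and 153 lower. The share of regions above 0 at unadjusted p under 0.05 was 72.4% with the authors' scaling and 65.6% with TMM factors, 68.5% with DESeq2 size factors, 64.4% with loess and 61.1% in edgeR. The smallest adjusted p was 0.9999 in the main limma test, so none of the genes described here passed.

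The 95% interval of a difference reached a median of 0.476 on the log2 scale to either side over all regions. It lay inside -1 to 1, a 2-fold change, at 87.2% of regions and inside -0.5 to 0.5 at 39.0%. For the 12159 regions that hold the strongest summit of a protein-coding gene, the median was 0.237, and 98.6% of intervals lay inside -1 to 1 and 84.1% inside -0.5 to 0.5. No such gene region had a difference over 1 in size, and 50 were over 0.5.

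A higher mean after defeat was found at 52% of regions. In 157 regions (0.326%) the 10 defeat libraries lay all on one side of the 3 control libraries, 88 above (0.183%) and 69 below (0.143%). Of the 286 ways to split the libraries, 1 puts the 10 defeat libraries all on a given side, a share of 0.0035. Neither direction reached that share, so a lack of overlap does not by itself mark a difference. The regions above were mostly weak: 55 of 88 were single summits, their median control level was 22.6, and their median difference was 0.57. Those below were stronger, with 29 of 69 single summits, a median control level of 88.5 and a median difference of -0.40. Over all 48174 regions, 20781 were single summits and the median of the mean level over all libraries was 60.8. A mean of 200 or more was reached by 26 of the 69 lower regions and by 9 of the 88 higher ones. The share of all regions at that level was not counted. A boundary of a protein-coding gene lay within 2 kb of 41 of the higher and 39 of the lower regions, and of 26282 of all 48174 regions. Fewer control libraries span a narrower range, and with control replicate 1, 2 or 3 left out the counts were 725, 469 and 324 above and 546, 375 and 258 below. With SDS30 replicate 5 left out they were 228 and 137, and with SDS10 replicate 2 left out 149 and 119.

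**Figure D1:**
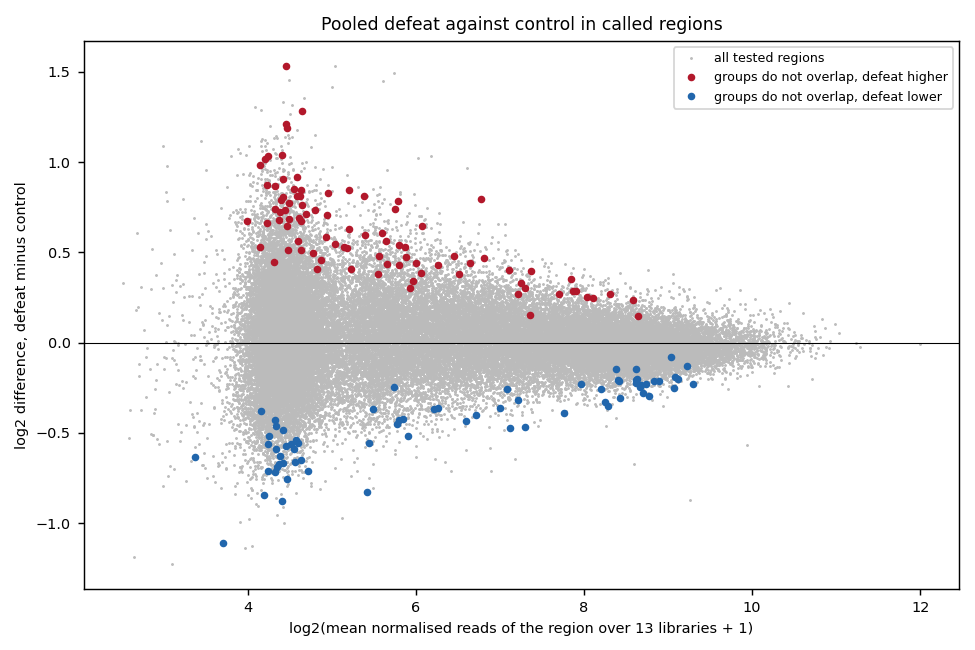
Difference between the mean of 10 defeat and of 3 control libraries (vertical axis, log2) against the mean level over all 13 libraries (horizontal axis, log2 of normalised reads + 1), for 48174 regions, each 1 point. The 88 regions with all defeat libraries above control (red) lie mostly at low levels and the 69 with all below (blue) reach to higher levels, inside the cloud of all regions (grey).

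Over all regions, the share with a higher mean varied with the level and with the scaling. Regions were split by mean level into 5 classes of equal size. In class 5, the strongest, 41.0% had a higher mean after defeat and the median difference was -0.02, and in class 3 the values were 58.0% and 0.04. With loess, which removes trends with the level, the shares were 49.4% and 50.6%. With TMM factors they were 35.8% and 55.7%. Among 13724 protein-coding genes, counted at the region with the gene's strongest summit, 43.2% had a higher mean, and 217 (1.58%) had an unadjusted p under 0.05. The groups did not overlap at 7 genes above (0.051%) and at 25 below (0.182%).

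The 10 gene regions nearest to a call on the higher side belonged to Eef1aknmt, Cog3, Ifrd1, Magohb, Ylpm1, Fem1c, Map3k3, H2bc8, Ank and Spag7, and on the lower side to Pou2f1, Depdc1b, Lrrc10b, Rftn1, Sccpdh, Gxylt2, Git2, Rffl, Hs3st6 and Ngfr. Each had an adjusted p of 0.9999 (limma). On the higher side, 8 of 10 were a flanking region, which means here that the region with the gene's strongest summit, its main region, was another one. The word gives no position: the flanking regions of Lrrc10b and H2bc8 lay 25 and 91 bp from the start. At Spag7 and H2bc8 the main region was the weaker one, with control means of 106 and 36.8 against 132 and 46.0. On the lower side, 7 of 10 were that main region itself. The difference between these counts was not tested. Flanking regions are common: 26282 tested regions lay within 2 kb of a protein-coding gene boundary, and 12159 regions were main regions.

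The promoters of 3 genes from each side are printed here because the values given next lie at or beside them. Each sequence runs 5′ to 3′ on the gene's strand from 250 bases before to 50 bases after the RefSeq start site (GRCm38.p6), with CpG dinucleotides in capitals.
Eef1aknmt (chr1:162548296-162548595, minus strand): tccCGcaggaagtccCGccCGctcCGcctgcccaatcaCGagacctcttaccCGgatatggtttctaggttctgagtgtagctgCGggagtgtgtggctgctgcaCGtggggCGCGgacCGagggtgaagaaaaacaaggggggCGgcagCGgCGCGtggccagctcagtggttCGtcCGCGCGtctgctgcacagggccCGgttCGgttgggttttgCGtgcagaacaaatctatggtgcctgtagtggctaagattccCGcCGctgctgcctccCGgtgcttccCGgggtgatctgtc
Ifrd1 (chr12:40223140-40223439, minus strand): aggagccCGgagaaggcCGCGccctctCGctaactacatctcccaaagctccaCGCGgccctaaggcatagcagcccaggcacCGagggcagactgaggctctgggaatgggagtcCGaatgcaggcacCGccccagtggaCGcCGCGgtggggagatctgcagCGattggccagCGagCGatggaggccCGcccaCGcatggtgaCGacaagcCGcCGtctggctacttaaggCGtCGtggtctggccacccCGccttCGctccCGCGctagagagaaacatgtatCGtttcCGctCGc
Magohb (chr6:131293195-131293494, minus strand): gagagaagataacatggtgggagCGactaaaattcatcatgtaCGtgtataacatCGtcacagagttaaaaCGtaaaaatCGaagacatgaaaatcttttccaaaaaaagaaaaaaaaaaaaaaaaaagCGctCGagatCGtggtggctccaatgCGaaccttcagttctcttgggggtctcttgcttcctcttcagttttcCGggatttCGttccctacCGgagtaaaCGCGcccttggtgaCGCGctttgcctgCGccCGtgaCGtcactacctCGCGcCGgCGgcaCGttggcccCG
Lrrc10b (chr19:10457398-10457697, minus strand): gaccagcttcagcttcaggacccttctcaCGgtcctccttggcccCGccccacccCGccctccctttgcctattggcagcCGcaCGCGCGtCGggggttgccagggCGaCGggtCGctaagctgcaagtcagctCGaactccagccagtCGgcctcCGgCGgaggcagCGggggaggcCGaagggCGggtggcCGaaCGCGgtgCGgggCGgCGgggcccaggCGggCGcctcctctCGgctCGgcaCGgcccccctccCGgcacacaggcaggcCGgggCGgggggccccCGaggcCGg
Rftn1 (chr17:50190448-50190747, minus strand): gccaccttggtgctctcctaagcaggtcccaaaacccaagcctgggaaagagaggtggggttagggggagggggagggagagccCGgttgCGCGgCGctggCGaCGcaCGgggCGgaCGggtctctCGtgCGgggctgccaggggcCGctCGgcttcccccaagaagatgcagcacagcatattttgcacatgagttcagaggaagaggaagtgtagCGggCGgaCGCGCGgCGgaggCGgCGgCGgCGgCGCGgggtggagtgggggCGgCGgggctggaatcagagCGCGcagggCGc
Sccpdh (chr1:179667981-179668280, plus strand): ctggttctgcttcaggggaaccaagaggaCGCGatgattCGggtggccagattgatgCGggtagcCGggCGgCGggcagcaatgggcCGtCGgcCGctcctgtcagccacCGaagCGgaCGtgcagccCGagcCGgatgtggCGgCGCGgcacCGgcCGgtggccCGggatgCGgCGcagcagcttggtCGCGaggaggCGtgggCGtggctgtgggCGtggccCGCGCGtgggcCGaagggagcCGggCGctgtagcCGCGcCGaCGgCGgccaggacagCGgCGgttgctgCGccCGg

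All 6 are CpG-rich: they hold 26 CpG dinucleotides in Eef1aknmt, 29 in Ifrd1, 25 in Magohb, 34 in Lrrc10b, 30 in Rftn1 and 43 in Sccpdh. The median of all 32851 mouse promoters of the same length, with or without the mark, is 7, and the middle 50% lie between 3 and 20. Of the other named genes with a promoter, H2bc8 (7), Gxylt2 (17) and Map3k3 (19) lay in that range. The rest held more than 20. Promoters of 17 of the 20 genes were searched on both strands for the cAMP response element TGACGTCA, which 1.79% of all promoters hold, the AP-1 motif TGANTCA (7.81%) and the palindromic consensus of the glucocorticoid response element (0.00913%). Only the Magohb promoter held a match, 1 cAMP response element, and none of the other 16 held any of the 3 motifs. A match is a string of letters and was not tied to a factor here.

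Ifrd1, which encodes a transcriptional coregulator, had the smallest p-value among main regions on the higher side. Its region (chr12:40221079-40222577, 10 summits inside the gene) stood at 509, 359 and 430 normalised reads in control. The defeat libraries ran from 451 to 656 with a median of 566. Of these, 8 lay above every control library and 2 within the control range. The means were 560 ± 56.2 (SD, n = 10) and 432 ± 74.99 (SD, n = 3), a difference of 0.38 ± 0.10 (SE). Leaving out control replicate 2 gave 0.25, and leaving out control replicate 1 gave 0.51. All 10 summits had a higher mean after defeat, from 121 against 101.2 at the strongest one to 34.2 against 14.7 at a weak one 779 bp away, where the groups did not overlap.

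Fem1c, a substrate receptor of a cullin ubiquitin ligase, was the other main region on the higher side (chr18:46522377-46525818, 18 summits). Control gave 1069, 834 and 859, and the defeat libraries 1007 to 1136 with a median of 1093. Control replicate 1 lay within the defeat range and the other two control libraries below it. The difference was 0.24 ± 0.07 (SE), and all 18 summits had a higher mean. At the strongest summit alone the means were 107 against 104, a difference of 0.03, while a summit 1706 bp away stood at 58.3 against 35.3.

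Eef1aknmt encodes the lysine methyltransferase of the elongation factor eEF1A. Its flanking region, a single summit 797 bp upstream of the start (chr1:162549142-162549143), gave 6.99, 10.4 and 12.6 in control and 15.6 to 31.3 after defeat, with a median of 24.2. The groups did not overlap, at means of 24.3 ± 4.90 (SD, n = 10) and 10.0 ± 2.83 (SD, n = 3) and a difference of 1.21 ± 0.28 (SE). The gene's main region (chr1:162547722-162548422) stood at 280 ± 34.2 against 281 ± 25.7, a difference of -0.01 ± 0.12 (SE).

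Magohb, a core component of the exon junction complex, showed the same arrangement. A region just upstream of its start (chr6:131293355-131293706) was at 103, 130 and 103 in control. It ran from 123 to 197 after defeat with a median of 158, and 9 of 10 libraries lay above every control. The difference was 0.49 ± 0.14 (SE), and all 3 summits had a higher mean, among them the outermost, at 53.5 ± 10.2 against 27.8 ± 1.49, and the strongest, at 69.9 against 53.8. The main region of Magohb gave 287 ± 33.6 against 274 ± 32.4, a difference of 0.07 ± 0.12 (SE).

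Flanking regions of Cog3, Ylpm1, Map3k3 and Ank had larger differences at low levels. Cog3, a subunit of a Golgi tethering complex, had 31.4, 5.21 and 10.3 in control and 15.9 to 49.4 after defeat. The groups overlapped, and the difference of 1.42 ± 0.36 (SE) was 0.88 when control replicate 2 was left out and reached 2.07 when control replicate 1 was. Its main region stood at 347 ± 46.5 against 378 ± 17.6. Map3k3, a kinase of MAP kinase cascades, had 13.97, 13.9 and 11.5 in control and 15.5 to 34.4 after defeat, with no overlap and a difference of 0.92 ± 0.26 (SE), and its main region differed by 0.01 ± 0.12 (SE). Ank, a membrane protein needed for export of pyrophosphate, had 13.8 ± 5.06 in control and 27.8 ± 7.30 after defeat in a flank, and 654 ± 32.8 and 681 ± 65.6 in its main region. For Ylpm1, a nuclear protein, the flank stood at 60.9 ± 12.2 against 35.2 ± 15.2 and the main region at 445 ± 44.0 against 463 ± 40.5. Its flank differed by 0.84, and by 0.54 without control replicate 2.

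H2bc8, a core histone gene of the cluster on chromosome 13, had 50.3, 48.6 and 39.0 in control in a region shared with H2ac8 that is also the main region of H2bc7 (chr13:23571491-23572031). The 10 defeat libraries ran from 52.6 to 90.3 with a median of 72.7, all above control. The difference was 0.64 ± 0.19 (SE), and at the main region of H2bc8 the means were 45.7 against 36.8. Spag7, whose region also lies within 2 kb of Camta2, a calmodulin-binding transcription activator, had 140, 123 and 132 in control and 147 to 190 after defeat, again with no overlap. The main region of Spag7 gave 110 ± 7.65 against 106 ± 6.34.

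On the lower side, Sccpdh, an oxidoreductase related to saccharopine dehydrogenase, had one of the strongest regions (chr1:179667572-179668814, 8 summits). Control gave 594, 636 and 602. The 10 defeat libraries ran from 462 to 583 with a median of 505, so that all lay below control. The means were 513 ± 39.2 (SD, n = 10) and 611 ± 22.3 (SD, n = 3), a difference of -0.25 ± 0.08 (SE). Of its 8 summits 7 had a lower mean, with 104 ± 20.9 against 137 ± 11.7 at the strongest.

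Rftn1 encodes raftlin, a protein of lipid rafts. Its main region (chr17:50189628-50190660) had 554, 455 and 570 in control and 354 to 480 after defeat with a median of 426, and 7 of 10 defeat libraries lay below every control. The difference was -0.31 ± 0.10 (SE), and all 7 summits had a lower mean. At the strongest summit, 141 bp downstream of the start, the groups did not overlap, at 78.5 ± 11.4 against 111 ± 8.65.

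Lrrc10b, a leucine-rich repeat gene, had the largest lower difference at a weak summit 25 bp upstream of its start (chr19:10457472-10457473). Control gave 18.2, 26.1 and 18.3, and the defeat libraries 3.39 to 12.2 with a median of 10.8. The groups did not overlap and the difference was -1.11 ± 0.35 (SE). The main region of Lrrc10b was at 83.1 ± 10.0 against 98.2 ± 5.46, a difference of -0.25 ± 0.16 (SE).

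Ngfr, which encodes the p75 neurotrophin receptor, had 314, 334 and 356 in control (chr11:95586557-95587777). The defeat libraries ran from 222 to 329 with a median of 262, and 9 of 10 lay below every control. The difference was -0.35 ± 0.12 (SE), and all 8 summits had a lower mean. Git2, a GTPase-activating protein for Arf proteins, had 482 to 533 in control and 325 to 459 after defeat. Rffl, a ubiquitin ligase that shares its region with the recombination gene Rad51d, had 463 to 492.9 and 324 to 450. The groups did not overlap at Git2 or at Rffl, and the differences were -0.29 ± 0.10 and -0.28 ± 0.09 (SE).

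Gxylt2, a xylosyltransferase that modifies Notch, had 219 ± 15.3 in control and 164 ± 27.1 after defeat, and Hs3st6, a heparan sulfate sulfotransferase, 373 ± 29.9 and 291 ± 47.1. In both, part of the defeat libraries lay within the control range. Pou2f1, which encodes the transcription factor Oct-1, and Depdc1b were the remaining flanks on this side. The Pou2f1 flank (chr1:166003119-166003275) had 171, 189 and 166 in control and 103 to 147 after defeat, with no overlap and a difference of -0.48 ± 0.14 (SE), and its main region 589 ± 61.6 against 644 ± 52.1. The Depdc1b flank stood at 85.9 ± 16.3 against 130 ± 24.5 and its main region at 218 ± 27.4 against 191 ± 40.0, a higher mean.

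**Figure D2:**
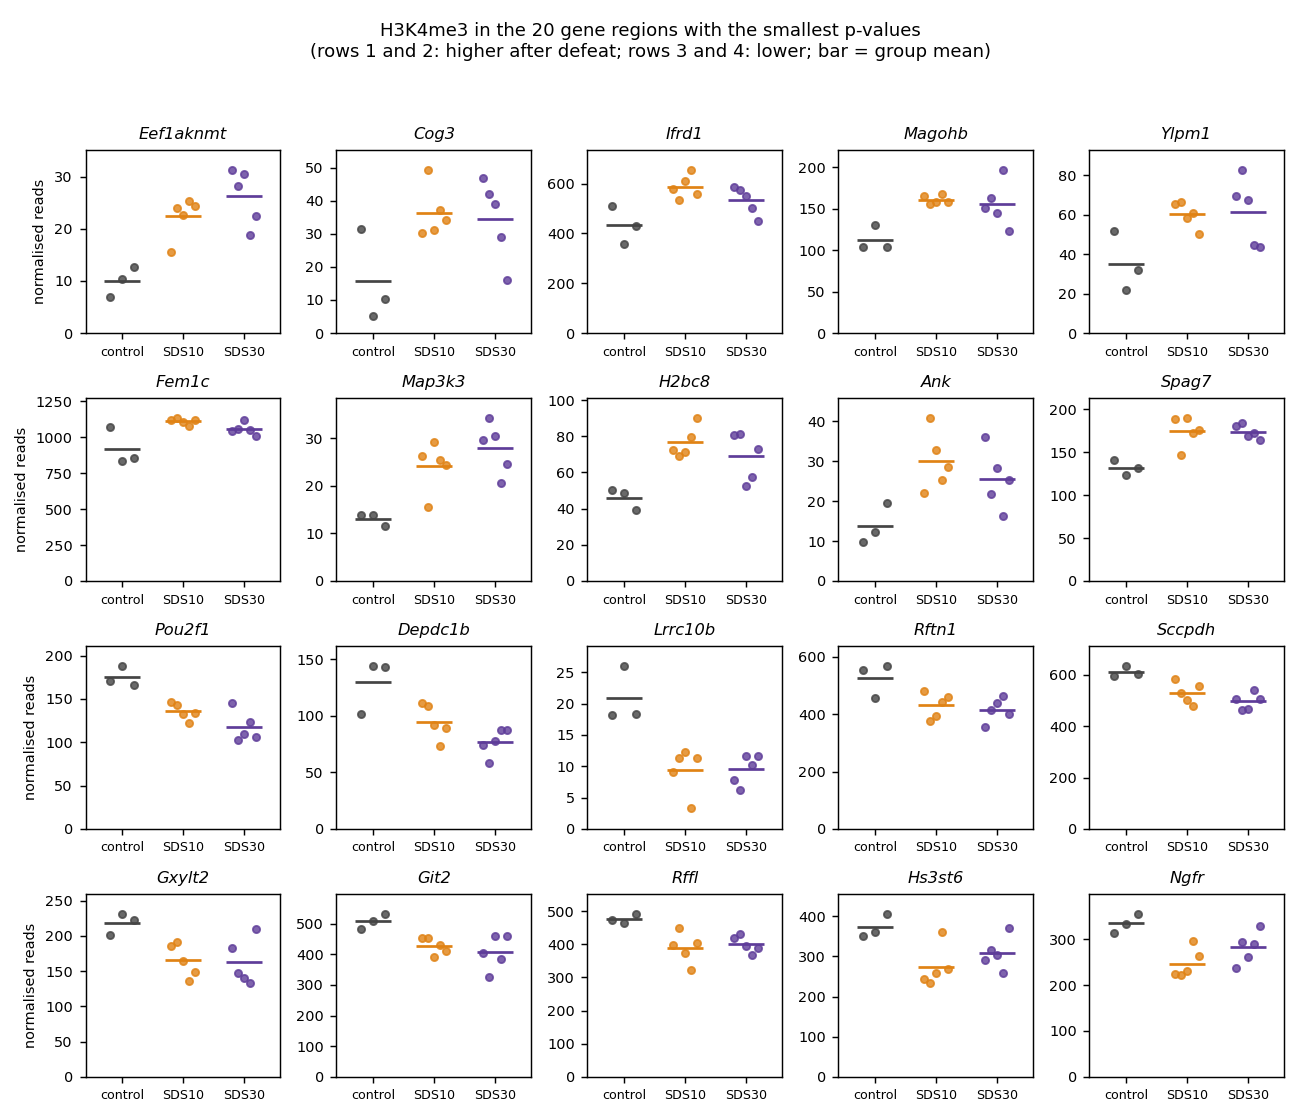
Normalised reads (vertical axis, from 0) in each library of control (n = 3), SDS10 (n = 5) and SDS30 (n = 5) for the 20 named gene regions, with points for libraries and a bar for each group mean. In Eef1aknmt, Map3k3, H2bc8 and Spag7 all 10 defeat libraries lie above control, and in Pou2f1, Lrrc10b, Sccpdh, Git2 and Rffl all lie below.

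**Figure D3:**
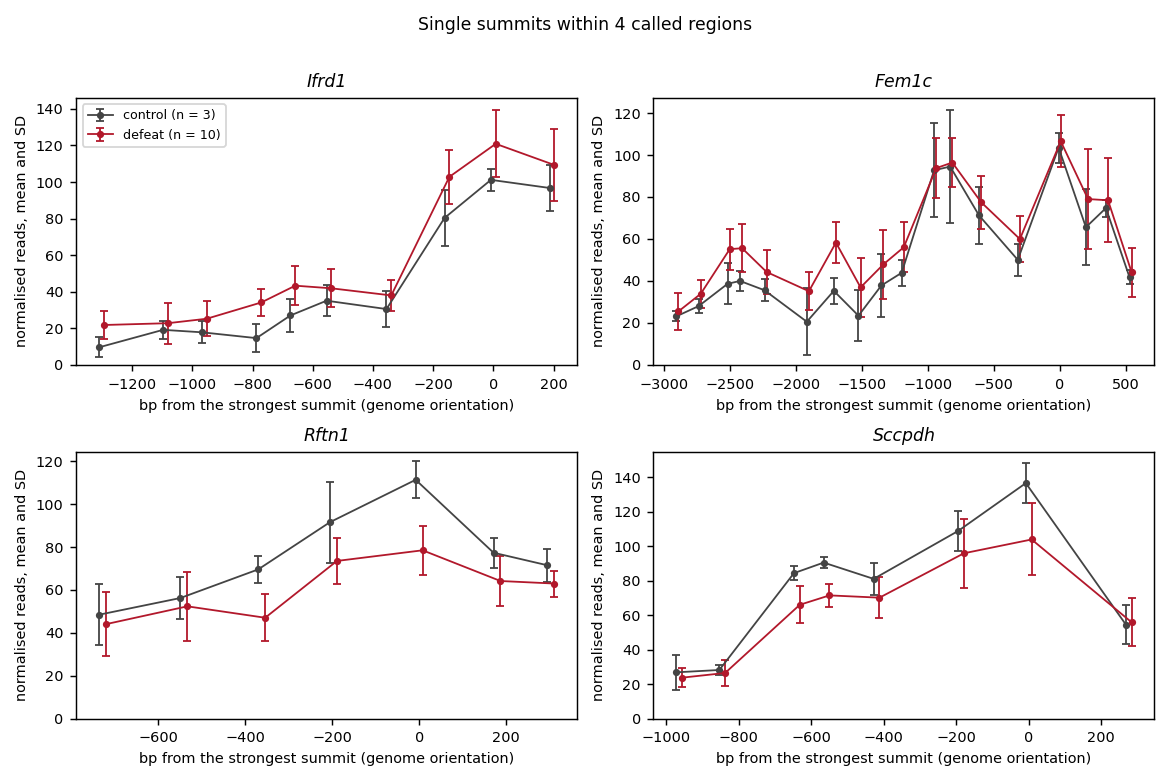
Mean normalised reads with SD at single summits of 4 main regions in 3 control and 10 defeat libraries, by distance from the strongest summit in bp. All 10 summits of Ifrd1 and 18 of Fem1c have a higher mean after defeat, and 7 of 7 in Rftn1 and 7 of 8 in Sccpdh a lower one.

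Among regions near genes with a mean level of 50 or more and no overlap, most of the largest differences were again at flanks. The share of flanks among all regions of that level was not counted. On the higher side after H2bc8 came Csnk1g2, a casein kinase (92.9 ± 12.9 against 66.1 ± 8.91), and Sumf1, which activates sulfatases (62.3 ± 18.1 against 43.3 ± 3.72). Rpl21, a ribosomal protein gene, had 59.4, 58.2 and 60.7 in control and 68.1 to 92.6 after defeat at a flank, and its main region was at 383 ± 40.1 against 400.2 ± 46.6. Aldh7a1, a dehydrogenase of lysine breakdown, had 145 against 109 at a flank and 383 against 384 in its main region. A flank shared by Rhof, a small GTPase, and Setd1b, an H3K4 methyltransferase, had 41.9, 41.7 and 44.7 in control and 48.5 to 70.3 after defeat. The strong region beside it stood at 1051 ± 103 against 1110 ± 51.7, a difference of -0.08 ± 0.08 (SE).

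On the lower side after Pou2f1 came Fam163a, at 49.8 ± 9.02 against 67.5 ± 2.18 at a flank and 179 ± 21.1 against 194 ± 5.34 in its main region. Olig2, the transcription factor that specifies oligodendrocytes, had 120, 112 and 126 in control at a flank near the far end of the gene (chr16:91227265-91227701). The defeat libraries ran from 65.9 to 105 with a median of 91.5, all below control, and the difference was -0.43 ± 0.16 (SE). The main region of Olig2 (chr16:91225488-91226687) was at 228 ± 42.5 against 235 ± 27.2, a difference of -0.06 ± 0.14 (SE). Cdca5, a regulator of cohesin, had 50.6 ± 4.32 against 68.5 ± 7.28 at a summit near its start and 199.6 ± 28.0 against 202 ± 17.5 in its main region. Mien1 stood at 68.5 against 88.5 at a flank and at 293 against 299 in its main region. That flank lay inside the RefSeq span of Mien1, 725 bp from a gene boundary. It was 18517 bp upstream of the start site that the promoter set holds for Mien1. Myo5b, a myosin motor of vesicle transport, was the one main region in this set, with 246, 289 and 248 in control and 144 to 241 after defeat.

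Beyond 2 kb of any gene boundary lay the region with the smallest p-value of all, a single summit inside Kcnj3 (chr2:55438717-55438718), the gene of a G protein-gated potassium channel. Control gave 12.6, 6.08 and 5.73 and the defeat libraries 17.1 to 38.4 with a median of 22.5, with no overlap. The difference was 1.53 ± 0.31 (SE; limma, adjusted p = 0.9999). A summit inside Lrrc4c, a synaptic adhesion gene (chr2:97472193-97472194), had 6.99, 12.2 and 13.8 in control and 19.5 to 41.5 after defeat. A region between genes on chromosome 16 (chr16:77595532-77595948, 4 summits) was at 120 ± 22.7 against 70.2 ± 20.2, also with no overlap. On the lower side, a region inside Nacad (chr11:6603692-6603823) had 64.3, 65.2 and 58.5 in control and 27.1 to 45.7 after defeat. A region inside Pax5, a transcription factor of B cells, stood at 144 ± 17.6 against 198 ± 20.7, and one inside Casz1, a zinc finger transcription factor, at 461 ± 66.7 against 584 ± 41.0.

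The groups also stood apart at single summits of regions that overlapped as a whole. They did not overlap at 0.41% of summits, 326 above (0.214%) and 299 below (0.196%). Each direction again lay below 0.0035, the share that 1 of the 286 splits makes. In regions with several summits, 7 of 271 such higher summits (2.58%) and 18 of 270 lower ones (6.67%) lay in a region that was itself without overlap in that direction. At Grm3, a metabotropic glutamate receptor gene, a summit 509 bp upstream of the start (chr5:9725861-9725862) had 41.9, 46.9 and 34.4 in control. The defeat libraries ran from 59.9 to 93.7 with a median of 67.3, all above control, and the difference was 0.76 ± 0.17 (SE). The whole Grm3 region of 12 summits stood at 620 ± 79.6 against 517 ± 35.4, a difference of 0.25 ± 0.10 (SE), with overlap.

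At Phlda1, which encodes a pleckstrin homology-like domain protein, 1 of 12 summits stood at 66.4 ± 10.9 against 36.7 ± 6.94, and 5 of the 12 had a higher mean. At Ndufc2, of respiratory complex I, a summit had 30.4 ± 8.21 against 12.4 ± 4.48, while 6 of its 8 summits had a lower mean. At Itgb8, an integrin gene, a summit had 31.5 ± 8.57 against 13.4 ± 4.31, and of its 15 summits 9 were higher and 6 lower. App, the amyloid precursor gene, had 106, 102 and 117 in control at a summit 298 bp into the gene. The defeat libraries gave 58.4 to 88.9 there, all below control, while 6 of the 10 App summits had a higher mean. Tgif2, a homeobox corepressor, had 49.3 ± 11.6 against 79.2 ± 6.92 and Spats2 79.5 ± 10.5 against 114 ± 7.01 at 1 summit each. Rph3al, an effector of vesicle release, was the other way round: its summit, at 38.6 ± 9.75 against 64.0 ± 6.88, overlapped with control in 1 library, while its whole region, at 293 against 369, did not. That summit lay inside the RefSeq span of Rph3al, 860 bp from a gene boundary. It was 40863 bp upstream of the start site that the promoter set holds for the gene.

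Each duration was also set beside the other. Both are measured against the same 3 control libraries, so that their values are not independent and no agreement between them was computed. Ifrd1 stood at 587 ± 46.9 after 10 days and at 534 ± 55.9 after 30 (SD, n = 5 each). Fem1c gave 1112 ± 20.6 and 1057 ± 41.4, and the summit inside Kcnj3 24.8 ± 6.11 and 24.9 ± 8.93. On the lower side, Pou2f1 was at 136 ± 9.63 in SDS10 and 118 ± 17.5 in SDS30, Depdc1b at 94.8 ± 15.8 and 77.0 ± 12.2, and Ngfr at 247 ± 32.3 and 282 ± 34.6. The difference between the durations, in which the control cancels, passed at 0 of 48174 regions (0%) in limma, with 2224 (4.62%) at an unadjusted p under 0.05.

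**Figure D4:**
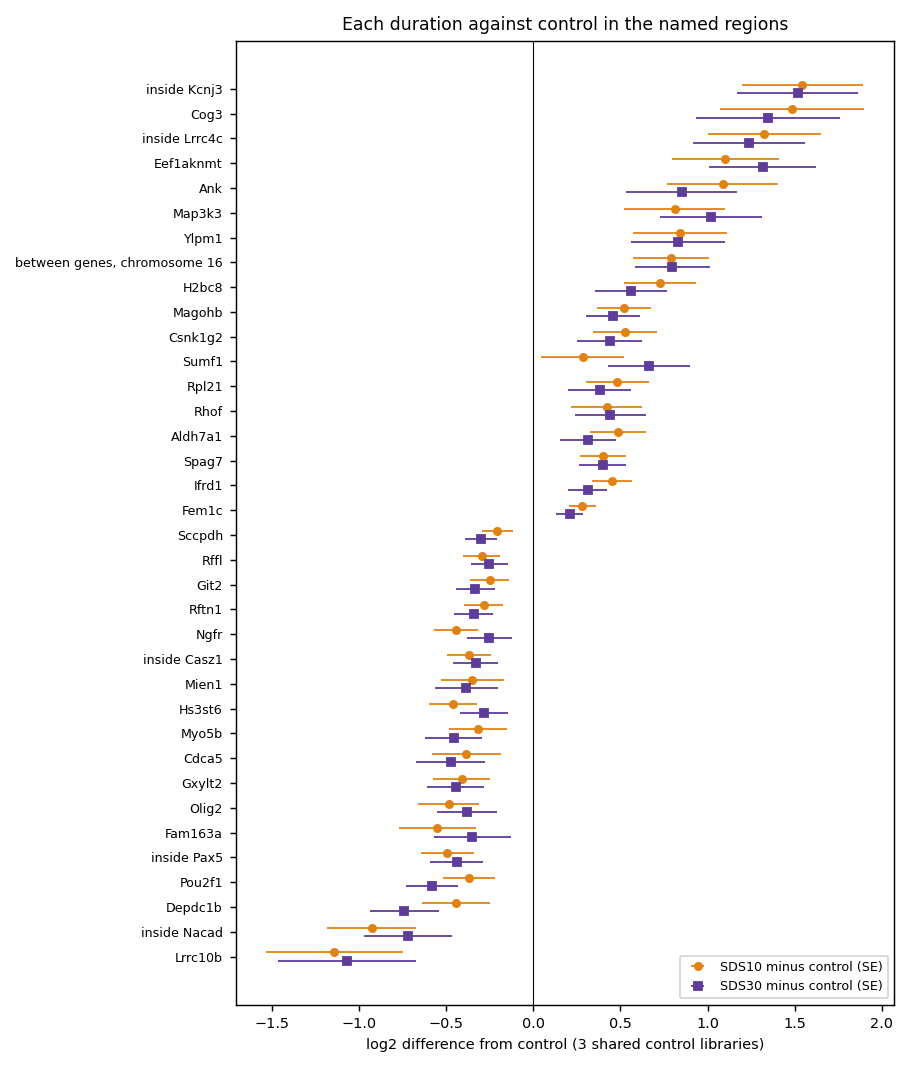
Log2 difference from control with SE for SDS10 (orange circles) and SDS30 (purple squares) in the 36 named regions, sorted by the mean of both. Both durations use the same 3 control libraries, and the named regions were taken for their pooled difference, which fixes the shared side; the values are closest in Spag7 (0.40 and 0.40) and farthest apart in Sumf1 (0.28 and 0.66).

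None of 25 gene lists held a member that passed. The members named below are mainly the 2 of each list with the smallest p-values, so they are extremes and not typical members. In all, 617 of the 687 different genes listed had a tested region within 2 kb, and the median difference of all gene regions was -0.02. Activity-regulated genes had 13 members higher and 17 lower of 30, with a median of -0.01. Fos, the immediate early transcription factor, had 99.2, 77.3 and 80.2 in control and 82.9 to 118 after defeat. These groups overlapped, and the difference was 0.24 ± 0.16 (SE). Npas4, another immediate early gene, gave 29.8 ± 8.59 against 22.9 ± 6.37, a difference of 0.36 that was 0.13 with control replicate 1 left out. Means were 848 ± 112 against 851 ± 17.8 at Arc and 78.0 ± 25.1 against 79.0 ± 22.7 at Bdnf. Maff, a small Maf factor, had the smallest p-value of this list, at 392 ± 33.1 against 465.8 ± 38.0, and Gadd45g, a stress-inducible gene, followed at 1033 ± 59.3 against 926 ± 24.9. The Arc and Bdnf differences, -0.02 and -0.05, changed sign under some alternatives.

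Glucocorticoid and stress-axis genes had 12 of 24 members higher and 12 lower, with a median of -0.004. The glucocorticoid receptor gene Nr3c1 gave 47.9 ± 11.2 against 49.4 ± 13.2 and Crh, the stress neuropeptide gene, 116 ± 15.4 against 113 ± 3.68. Fkbp5, the receptor's co-chaperone and target, had 414, 472 and 487 in control. After defeat it ran from 337 to 511 with a median of 388, and 6 of 10 libraries lay below every control. Its mean was 435 ± 63.7 in SDS10 and 377 ± 10.7 in SDS30, and the pooled difference was -0.18 ± 0.11 (SE). Zbtb16 and Per1, both glucocorticoid targets, gave 1383 ± 76.0 against 1281 ± 45.1 and 389 ± 42.1 against 341 ± 36.4.

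Genes that write, remove or read the mark had medians close to that of all gene regions. H3K4 methyltransferase complex genes had 8 higher and 12 lower of 20, with a median of -0.005 and a range from -0.17 to 0.09. Smyd3 gave 454 ± 33.5 against 510 ± 16.04 and Cxxc1, the CpG-binding subunit of the Setd1 complexes, 320 ± 31.5 against 357 ± 24.0. Among 8 H3K4 demethylase genes 3 were higher and 5 lower, with Kdm5b at 656 ± 66.5 against 702 ± 79.9 and Kdm1b at 491 ± 67.7 against 536 ± 38.0. With control replicate 2 left out, the differences at Kdm5b and Kdm1b moved from -0.10 and -0.14 to -0.03 and -0.08, and Kdm5b was at -0.19 with control replicate 1 left out. Of 17 reader genes 7 were higher and 10 lower. Ing5, a reader in histone acetyltransferase complexes, had 166, 148 and 162 in control and 161 to 248 after defeat, a difference of 0.34 ± 0.13 (SE) in which 8 of 10 defeat libraries lay above every control.

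Core and linker histone genes had 36 of 56 members higher and 20 lower, with a median of 0.05 that was 0.02 with control replicate 2 left out. The 56 genes share 40 regions, so they are not 56 separate observations. H2bc7 had the region described above, and H3c11, a single weak summit, gave 20.7 ± 6.70 against 12.2 ± 6.76. Its difference was 0.83, and 0.27 with control replicate 2 left out. H2ac7 and H3c4 share a region at 15.1 against 20.7, the lowest difference of the list at -0.52.

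Markers of cell types and neighbouring tissue are given as whole lists, and their part in other results was not tested. Oligodendrocyte and myelin genes had 5 members higher and 17 lower of 22, with a median of -0.09 that lay between -0.15 and -0.08 without any 1 library. The list's mean log2 level, centred over all libraries, ran from 0.07 to 0.15 in control and from -0.22 to 0.13 after defeat. Mal, a myelin lipid raft protein, gave 162 ± 23.0 against 201 ± 30.5, a difference of -0.31 that was -0.19 with control replicate 1 left out. Means were lower too at Myrf, a regulator of myelination (161 against 192), and at Mag, of the inner myelin sheath (21.3 against 28.9). Mbp, of compact myelin, gave 550 ± 63.5 against 546 ± 93.6. The list's members Mog, Mobp, Opalin and Ermn were among those with no tested region.

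Inhibitory neuron markers had 3 members higher and 18 lower of 21, with a median of -0.07, which was -0.14 and -0.02 with control replicate 1 or 3 left out, and levels from -0.18 to 0.18 in control and from -0.19 to 0.21 after defeat. Gad1, which makes GABA, was one of the 3, at 40.9 ± 10.5 against 30.7 ± 3.32, and Dlx2, an interneuron transcription factor, stood at 145 ± 18.4 against 168 ± 22.2, a difference of -0.21 that was -0.10 with control replicate 2 left out. Excitatory neuron markers had 10 higher and 12 lower of 22, with Slc17a7, the cortical vesicular glutamate transporter, at 44.5 ± 9.59 against 52.5 ± 11.1. The Slc17a7 difference was -0.24, and -0.10 or -0.41 with control replicate 1 or 2 left out. The smallest p-values of that list were at Etv1 (1126 ± 123 against 991 ± 108) and Lmo4 (1240 ± 139.98 against 1121 ± 74.7), transcription factor genes with a higher mean after defeat. The Lmo4 difference was 0.14, and 0.08 with control replicate 2 left out. Striatal neuron markers had 5 higher and 13 lower of 18, with a median of -0.09 that was -0.02 with control replicate 2 left out. Among them the dopamine receptor gene Drd2 gave 16.8, 34.7 and 30.9 in control and 5.13 to 38.1 after defeat, and its difference of -0.59 was -0.90 with control replicate 1 left out. Pde10a, a phosphodiesterase gene of striatal neurons, was higher, at 662 ± 56.0 against 594 ± 29.1, with 9 of 10 defeat libraries above every control. Ependymal and choroid plexus markers had 1 higher and 6 lower of 7, with Clic6 at 114 ± 35.2 against 142 ± 30.7, a difference of -0.34 that was -0.19 with control replicate 3 left out. Astrocyte markers had 11 higher and 4 lower of 15, with a median of 0.05 that was 0.0006 with control replicate 1 left out.

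Receptor lists moved with single control libraries. GABA receptor genes had the highest median of all lists, 0.13, with 11 higher and 3 lower of 14 genes in 12 regions. Gabra3 had 41.2, 81.7 and 88.3 in control and 68.4 to 119 after defeat, and its difference of 0.41 was 0.06 with control replicate 1 left out. The list's median was -0.09 with control replicate 1 left out. Monoamine and opioid receptor genes had 7 higher and 17 lower of 24, with a median of -0.07, which was 0.02 with control replicate 2 left out. Glutamate receptor genes had 11 higher and 14 lower of 25, with a median of -0.03 and 0.13 with the same library left out. Gria3, an AMPA receptor subunit, gave 249 ± 58.0 against 198 ± 37.4, a difference of 0.32 that was 0.16 with control replicate 1 left out.

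The other lists with tissue or signalling genes had members in both directions, and several also moved with single control libraries. Microglia and macrophage markers had 5 higher and 4 lower of 9, endothelial and mural markers 8 and 12 of 20, and inflammatory signalling genes 9 and 15 of 24. Synaptic adhesion and scaffold genes had 19 higher and 14 lower of 33, and potassium channel genes 14 and 20 of 34. Over omissions of 1 library, medians ran from -0.20 to 0.07 for potassium channel genes, from -0.06 to 0.07 for synaptic adhesion genes and from -0.24 to 0.01 for endothelial and mural markers. Circadian clock genes had 12 higher and 8 lower of 20, and Clock, which encodes a core activator of the clock, stood at 789 against 903, with differences from control of -0.05 in SDS10 and -0.35 in SDS30. The pooled Clock difference was -0.20, and -0.13 with control replicate 3 left out.

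Housekeeping lists lay near 0, with medians of -0.02 for 53 cytosolic ribosomal protein genes, 0.02 for 46 nuclear oxidative phosphorylation genes, 0.02 for 30 proteasome genes and -0.01 for 33 heat shock and chaperone genes. Rpl22 stood apart within its list, with 363, 390 and 392 in control and 273 to 367 after defeat, a difference of -0.25 ± 0.10 (SE) in which 9 of 10 defeat libraries lay below every control.

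**Figure D5:**
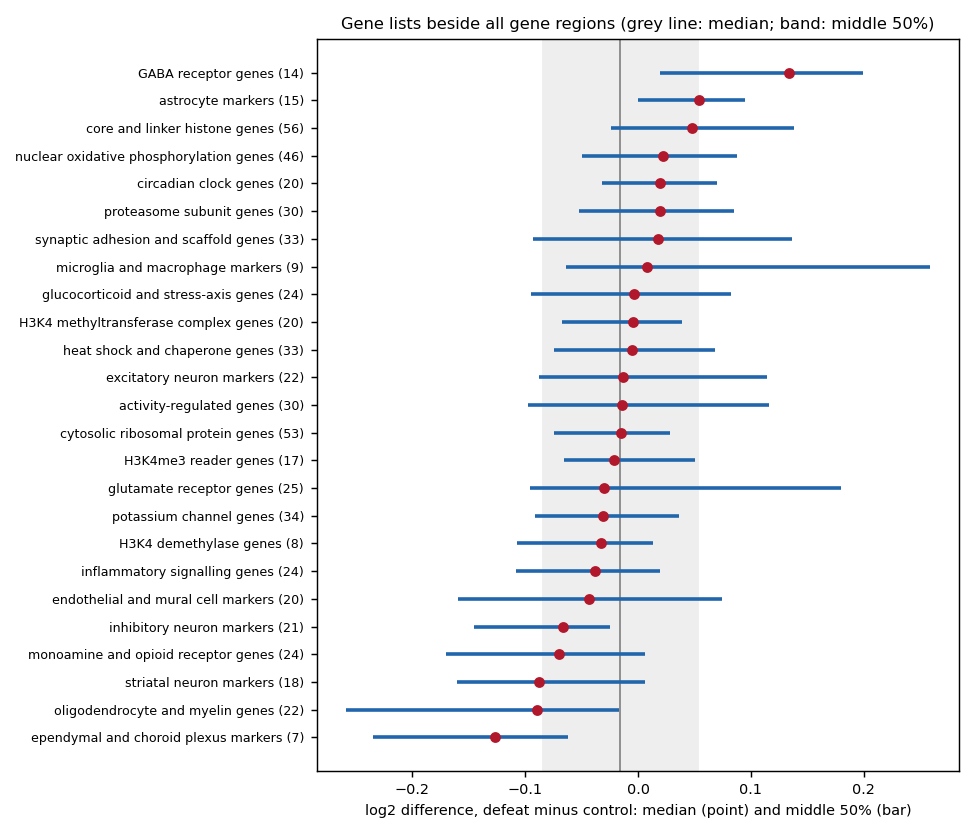
Median (point) and middle 50% (bar) of the log2 difference, defeat minus control, over the members of 25 gene lists, with the number of genes in brackets. The grey line and band give the median (-0.02) and middle 50% over all 13724 genes, which share 12159 regions. The list medians run from -0.13 for ependymal and choroid plexus markers to 0.13 for GABA receptor genes.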

How the data were processed

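H3K4me3 ChIP-seq of mouse prefrontal cortex was used from 13 libraries, and the input was not analysed here. Mononucleosomes were made with micrococcal nuclease and libraries amplified with 6 to 8 PCR cycles, per the labels' protocols. All libraries carry 1 batch date. The submitters' processing notes name Trimmomatic, Bowtie2, MACS2 and DESeq2 and the builds mm10 and GRCm38.p5, while software versions, counting windows and the handling of duplicates are, in the sources used here, not given.

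The deposited values are a normalised signal per summit. In 100% of them, multiplying back gave whole reads (within 0.001), so the authors' scaling was a single factor for each library. The peak score in the deposited table entered no test.

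Summits of a called region were summed. Values were tested as log2(value + 1), a scale that understates changes at low levels, with limma 3.58.1 in R 4.3.3 (variance trend, two-sided, 1 mean for defeat and 1 for control). P-values were adjusted by Benjamini-Hochberg over all regions or all summits, at a threshold of 0.05. The filterByExpr function of edgeR 4.0.16 on the recovered reads left out 521 regions and 937 summits. Alternatives were edgeR and DESeq2 1.42.0 tests, other scalings, filters and pseudocounts, array weights, a block on replicate number, 1 duration at a time, and omission of single libraries. The code was tested on simulated data. Intervals reflect the spread of these libraries, and PCR copies cannot be told from separate molecules.

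A region was given to the nearest protein-coding gene boundary of RefSeq (GRCm38.p6) within 2 kb of its strongest summit. Named in each direction were the 10 gene regions with the smallest p-values, the 6 largest differences without overlap at a mean of 50 or more, 3 regions beyond 2 kb, and 4 summits of further gene regions by p-value. Added were the 2 members of each list with the smallest p-values and 11 fixed genes. Gene models, pseudogenes and olfactory receptors were left out. List members were taken at the region with the gene's strongest summit. Members and lists were chosen with earlier results of these data known.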

Additional observations from a re-analysis of the deposited data

Results flagged for a closer look

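A library far from the rest of its group was found in 4 of 79 groups of values checked, and chance alone gives about 1 in 20. SDS30 replicate 2 held 20.4% of its signal beyond 2 kb of gene boundaries, and the next highest defeat library 19.3%. SDS10 replicate 2 lay at 104 on the first principal component, and the next of its group at 2.01. At the Spats2 summit, SDS10 replicate 4 had 54.2 normalised reads, and the next lowest defeat library 72.0. At Npas4, SDS30 replicate 1 had 50.9, and the next highest defeat library 37.5.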

How the results depend on the processing

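In limma, edgeR and DESeq2, 0 regions passed under each of 30 settings, and 0 summits under each setting run for them except that 4 passed with control replicate 1 left out (0 to 4 over single omissions). Counts at an unadjusted p under 0.05 moved more. Array weights gave 3363 regions higher and 2194 lower, and 6617 and 4445 summits. Unlike the main counts, these exceed the share of 0.05 that the threshold gives when nothing differs. Over the limma, edgeR and DESeq2 alternatives, the smallest adjusted p of the region inside Kcnj3 was 0.055. SDS10 alone gave 599 regions lower and SDS30 alone 3313 summits lower. With 1 library left out, regions ranged from 652 to 1645 higher and 153 to 556 lower, summits from 2188 to 5009 and 728 to 2846, and regions without overlap from 97 to 725 and 83 to 546. The cause of these shifts was not tested, except that fewer libraries overlap less by construction. Of 11 same-numbered pairs of libraries, 3 correlated above 0.1, and the range was -0.34 to 0.40. The 44 other pairs ran from -0.46 to 0.36, and whether replicate numbers pair the libraries was not tested. The replicate block gave 1013 regions higher and 491 lower, and called 0 regions.

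Differences in library measures changed sign with single omissions, from -2050000 to 70200 reads on summits, -0.268 to 0.0109 in size factor, -29.4 to 22.0 on the first principal component and -0.0304 to 0.00987 in distance to the control mean. Among named genes, Arc gave 0.0435 in SDS30 alone, 0.0139 with loess and -0.0537 to 0.0139 over omissions. Bdnf gave 0.135 with the replicate block, 0.247 at its strongest summit and -0.179 to 0.172 over omissions, and Nr3c1 0.0905 with the block and -0.28 to 0.097. Crh gave -0.012 in SDS10 alone, -0.0175 with the block and -0.0653 at its strongest summit. Mbp gave -0.0208 with array weights, -0.000619 in edgeR, -0.167 at its strongest summit and -0.0983 to 0.145 over omissions. Per1 and Lmo4 gave -0.00911 and -0.00304 at their strongest summit. Over omissions, Fgfr3 ran from -0.188 to 0.000615, Slc1a2 from -0.0396 to 0.245, Kdm5d from -0.0316 to 0.556 and Gabrb2 from -0.00639 to 0.31. The cause of these reversals was not tested. Precision varied with the level: 9635 regions in the lowest of 5 level classes had a median 95% interval of 0.70 to either side, against 0.21 in the highest, and the part of sequencing depth in this was not tested.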
